A study of Rattus norvegicus with 71 samples.

Results

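Stip1 encodes stress-induced phosphoprotein 1 (STIP1, also called HOP), a protein that is both a chaperone adaptor of the developing brain and one of the antigens recognised by maternal autoantibodies in maternal autoantibody-related autism (MARA). Described here are Stip1 and 7 genes that work with its product, namely Hsp90aa1, Hsp90ab1, Hspa8, Hsph1, Dnajb1, St13 and Prnp. They were chosen by symbol as the antigen gene, its chaperone partners and its ligand, and all 8 were found among the 17494 genes of the count table. Their levels were followed in all 71 offspring.

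The offspring were wild-type Sprague-Dawley rats at postnatal day (PND) 2. Their dams had been immunised before pregnancy with antigen peptides in Freund's adjuvant, or with adjuvant and saline alone (controls), so the controls carried the adjuvant too. The 24 controls came from 7 litters. The 47 MARA-AB exposed animals fell into 4 patterns, with 25 animals of LDHA/B+CRMP1+STIP1 (9 litters), 8 of STIP1+NSE (4 litters), 8 of CRMP1+CRMP2 (4 litters) and 6 of CRMP1+GDA (3 litters). CRMP1 and CRMP2 are collapsin response mediator proteins, GDA is guanine deaminase, NSE is neuron-specific enolase and LDHA/B are the lactate dehydrogenase subunits. STIP1 was therefore an antigen in 2 of the 4 patterns. Poly-A RNA was sequenced from 1 coronal slice per brain holding the hippocampal formation with neighbouring cortex and subcortical tissue, in 2 batches that were prepared and sequenced separately. In batch 1 were 16 LDHA/B+CRMP1+STIP1 animals with 12 controls, and batch 2 held 12 other controls and 31 animals of all 4 patterns. Animals of 1 litter share a dam, and no litter held animals of more than 1 exposure. The antibodies are directed at proteins, and transcripts were measured.

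The STIP1 machine passes unfinished proteins from one chaperone to the next. HSP70 chaperones such as HSPA8 bind unfolded clients with the help of J-domain proteins, STIP1 then holds HSP70 and HSP90 together, and HSP90 completes the folding of kinases, receptors and other signalling proteins. STIP1 is also released from cells of the brain, above all astrocytes, and binds the cellular prion protein at the neuron surface. Many of these genes are induced under heat and other protein stress by the factor HSF1, which binds repeats of the pentamer nGAAn in alternating orientation, called heat shock elements.

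The promoters of the members are shown first because heat shock elements are the feature for which this gene family is best known. RefSeq windows (build GRCr8, 250 bases before to 50 bases after the start) were matched for 6 of the 8 members, Stip1, Hsp90ab1, Hspa8, Hsph1, Dnajb1 and Prnp. Both strands were searched for the 2-unit elements GAANNTTC and TTCNNGAA and for the 3-unit element, GAANNTTC followed by NNGAA, which overlaps both. The 4 windows below hold matches, given in capitals, and are written 5′ to 3′ on the gene's own strand.
Stip1 (GRCr8 chr1:213657605-213657904, minus strand): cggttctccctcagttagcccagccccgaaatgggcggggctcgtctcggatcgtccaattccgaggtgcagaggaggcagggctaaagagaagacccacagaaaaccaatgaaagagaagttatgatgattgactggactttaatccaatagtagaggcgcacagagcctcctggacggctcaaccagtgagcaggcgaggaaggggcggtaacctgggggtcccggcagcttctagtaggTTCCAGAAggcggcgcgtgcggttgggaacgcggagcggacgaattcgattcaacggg
Hspa8 (GRCr8 chr8:50080264-50080563, plus strand): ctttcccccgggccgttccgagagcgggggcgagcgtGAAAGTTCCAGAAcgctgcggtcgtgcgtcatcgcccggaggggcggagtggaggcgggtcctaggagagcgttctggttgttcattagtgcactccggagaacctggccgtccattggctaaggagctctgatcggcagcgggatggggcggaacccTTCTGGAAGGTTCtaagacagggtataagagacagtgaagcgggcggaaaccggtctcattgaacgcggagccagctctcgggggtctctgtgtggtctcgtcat
Hsph1 (GRCr8 chr12:10427118-10427417, plus strand): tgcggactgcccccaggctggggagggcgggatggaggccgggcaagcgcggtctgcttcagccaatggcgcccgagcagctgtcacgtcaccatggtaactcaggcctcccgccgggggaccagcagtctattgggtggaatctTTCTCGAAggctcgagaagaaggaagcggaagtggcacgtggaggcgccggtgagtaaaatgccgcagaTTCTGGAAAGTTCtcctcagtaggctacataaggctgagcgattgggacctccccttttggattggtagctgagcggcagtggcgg
Dnajb1 (GRCr8 chr19:41431092-41431391, minus strand): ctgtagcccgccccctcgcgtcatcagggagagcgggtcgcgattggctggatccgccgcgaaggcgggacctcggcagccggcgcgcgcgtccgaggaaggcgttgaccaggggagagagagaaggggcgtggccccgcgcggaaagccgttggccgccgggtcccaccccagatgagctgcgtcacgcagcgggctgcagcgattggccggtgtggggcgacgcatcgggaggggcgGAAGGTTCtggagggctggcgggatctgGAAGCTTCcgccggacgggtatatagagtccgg

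The 3-unit element was found in 2 members, with 2 matches in Hspa8 and 1 in Hsph1, and in 0.798% of the 33469 promoter windows of all genes. In Hspa8 the matches lay at -213 to -201 and at -55 to -43, with position 0 being the first base after the 250 upstream bases, and in Hsph1 the match lay at -36 to -24. Stip1 held a single 2-unit match, TTCCAGAA, in the 8 bases directly upstream of its start, and Dnajb1 held GAAGGTTC at -11 to -4 and GAAGCTTC at 17 to 24. GAANNTTC occurred in 8.59% and TTCNNGAA in 8.77% of all windows. The windows of Hsp90ab1 and Prnp held none of these letters. A match is a description of the letters and not of a bound site.

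All 8 genes were abundantly expressed, and both cytosolic HSP90 genes and Hspa8 lay far above the others. Per length (RPKM, mean ± SD, n = 71), Hsp90ab1, the constitutive cytosolic HSP90, reached 1000.4 ± 63.6 and ranked 32 of 17494 genes. Hspa8, the constitutive HSP70, reached 986 ± 86.1 and ranked 33. Hsp90aa1, the more stress-responsive cytosolic HSP90, followed at 512 ± 45.2 and rank 102. Together the 8 genes took 0.592% to 0.755% of the counts of a library.

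The remaining 5 genes stood lower. Prnp, the prion protein gene, had an RPKM of 131.9 ± 26.6, and St13 (HIP), which steadies the client-bound state of HSP70, had 107 ± 6.82. Stip1 itself had an RPKM of 100.4 ± 8.35, with a lowest value of 82.9, a median of 99.7 and a highest value of 119, and ranked 899. Hsph1 (HSP110), which exchanges the nucleotide on HSP70, had 80.9 ± 5.94. Dnajb1, the J-domain protein that starts the HSP70 cycle, was lowest at 37.8 ± 3.28 and rank 2735.

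Each neighbouring pair of genes in this order kept it in most animals, while the whole order was not counted per animal. The levels pool both batches, between which Prnp differed. Hspa8 exceeded Hsp90aa1, Hsp90aa1 exceeded Prnp, Stip1 exceeded Hsph1 and Hsph1 exceeded Dnajb1 in 71 of 71 animals each. Hsp90ab1 and Hspa8 did not separate, since Hsp90ab1 was higher in 43 of 71 animals and the ratio of the RPKM values ran from 0.875 to 1.15. Prnp exceeded St13 in 55 animals and St13 exceeded Stip1 in 56. For each Stip1 transcript level the Hspa8 level was 9.78 times (median, range 8.51 to 11.2) and the Hsp90ab1 level 9.90 times (range 8.99 to 11.4) as high per length. The ratio of Hspa8 to its J-domain partner Dnajb1 was 25.3 (range 21.6 to 34.4).

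**Figure D1:**
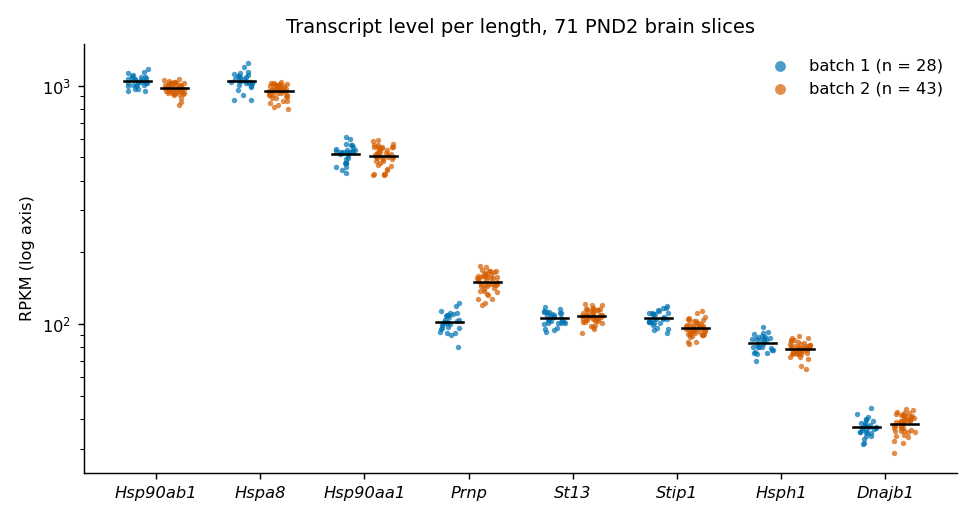
Transcript level per length (RPKM, log axis) of the 8 genes in 71 animals; each point is 1 animal (blue, batch 1, n = 28; orange, batch 2, n = 43) and each bar a batch mean. Hsp90ab1 and Hspa8 overlap near 1000.4 and 986, Stip1 and St13 lie near 100.4 and 107, and Prnp alone splits clearly by batch.

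These genes also varied little. The coefficient of variation over the 71 animals ran from 6.34% (St13) to 8.82% (Hsp90aa1) in 7 of the 8 genes, against a median of 11.4% over 6267 genes with a mean of at least 30 CPM (counts scaled to the library's size). Prnp stood apart at 20.2%. The counts behind these values ran from 1721 for Dnajb1 to 85714 for Hsp90ab1 in a single library. The CPM, like the RPKM above, are scaled by TMM factors, and from here on are compared only within a gene. Before that scaling 1 CPM stood for 24.9 to 36.2 counts.

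How much of the spread lay between litters differed among the genes. After the means of exposure and batch were removed, 57.8% of the variance of log2 CPM of Stip1 and 54.7% of that of Dnajb1 lay between litters. It was 45.0% for Hspa8, 39.5% for Hsp90ab1, 32.3% for St13, 30.3% for Prnp, 26.9% for Hsp90aa1 and 13.3% for Hsph1. Over 12477 genes the median was 26.7% and the quartiles 12.5% and 41.7%. Litter means of Stip1 ran from 181 CPM (a CRMP1+CRMP2 litter of batch 2) to 241 CPM (an LDHA/B+CRMP1+STIP1 litter of batch 1). Within batch 2 the highest was 235 CPM, in a control litter.

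The first question of the design is whether gestational MARA-AB exposure as such changed these transcripts. Stip1 ran from 173 to 249 CPM (median 208) in the 47 exposed animals and from 187 to 246 CPM (median 211) in the 24 controls. The groups overlapped along nearly their whole range. With the first surrogate variable in the model, Stip1 differed by -0.011 ± 0.025 on the log2 scale (SE; adjusted p = 0.911, quasi-likelihood test of edgeR, Benjamini-Hochberg adjustment over all genes). The 95% interval of the difference ran from -4.16% to 2.81%. Like every such interval below, it has animals as replicates and does not take into account the variance between litters.

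None of the 8 members passed FDR < 0.1 in this comparison, in which 0.0321% of 12477 genes did, and 1 member had an unadjusted p under 0.05. That member was Hsp90ab1, with a median of 2295 CPM in exposed animals and 2383 CPM in controls (log2 difference -0.048 ± 0.019, p = 0.0135, adjusted p = 0.369). At that unadjusted level 10.3% of all genes were counted. DESeq2, limma with litter as a random effect and the edgeR likelihood ratio test called 0 members as well.

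The sharper question is whether offspring of dams immunised against STIP1 differed in the antigen's own transcript. In STIP1+NSE animals Stip1 lay between 189 and 206 CPM (median 197, n = 8). In LDHA/B+CRMP1+STIP1 animals of the same batch it lay between 173 and 224 CPM (median 208, n = 9), in CRMP1+GDA animals between 196 and 222 CPM (median 208, n = 6) and in CRMP1+CRMP2 animals between 176 and 218 CPM (median 198, n = 8). The controls of that batch lay between 187 and 239 CPM (median 198, n = 12), so each pattern overlapped them and each other.

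**Figure D2:**
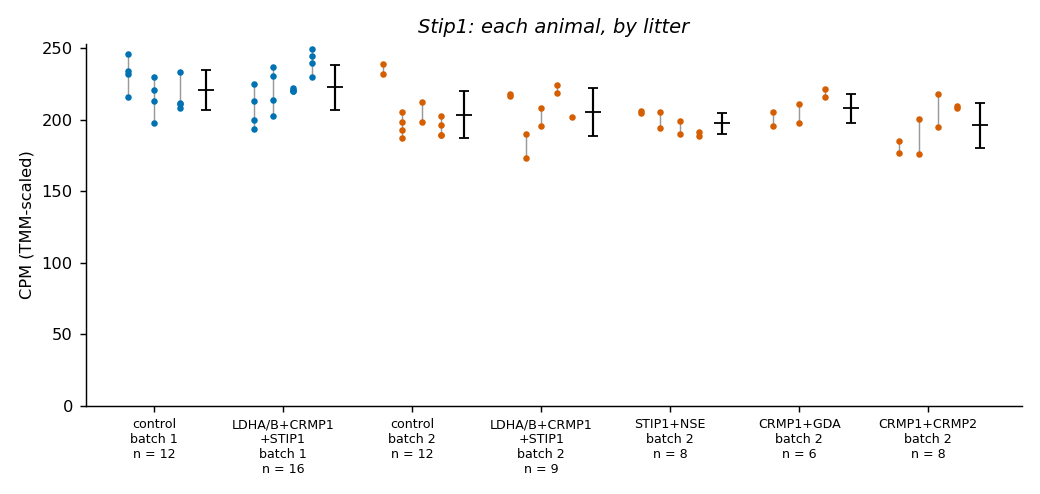
Stip1 level (TMM-scaled CPM, axis from 0) in each animal by exposure and batch; points joined by a grey line are littermates, and the black bar with whiskers is the mean ± SD of the group. STIP1+NSE animals (189 to 206 CPM) lie within the controls of batch 2 (187 to 239 CPM), and batch 1 lies slightly higher.

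Set directly against each other within batch 2, the 17 animals of the STIP1-containing patterns had 201.5 ± 13.3 CPM of Stip1 (SD) and the 14 animals of the other patterns 201.0 ± 14.5 CPM. The log2 difference was 0.0031 ± 0.038 (SE), and its 95% interval ran from -5.02% to 5.74%. That interval has animals as replicates and does not take into account the 57.8% of the variance of Stip1 that lay between litters. All 8 members had a higher estimate in this comparison, with a median log2 difference of 0.018 against -0.0035 over all 12309 genes. That direction depended on the fit. The estimates of Stip1, Hspa8 and St13 turned negative in some of 11 alternative fits, and those of Hsp90aa1 and Dnajb1 with 1 litter left out. Those of Hsp90ab1, Hsph1 and Prnp stayed positive. In a fit of all groups of batch 2, CRMP1+CRMP2 had the lowest estimate against controls in each member. CRMP1+GDA lay above both STIP1-containing patterns in every member but Hsph1. For Stip1 the log2 differences from controls were -0.060 for CRMP1+CRMP2, 0.020 for CRMP1+GDA, 0.0039 for LDHA/B+CRMP1+STIP1 and -0.048 for STIP1+NSE. In the other members both STIP1-containing patterns lay below controls. Between the STIP1-containing and other patterns no member was called (background 0% at FDR < 0.1). There 0 of 8 had an unadjusted p under 0.05 where 3.18% of all genes did, and DESeq2 also called 0. Prnp, the STIP1 receptor at the cell surface, had the largest difference of the 8, 0.050 ± 0.049.

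Each pattern was then set against all 24 controls with 1 surrogate variable. These comparisons share their control animals, so their values stand side by side without being compared. For Stip1 the log2 differences were -0.051 ± 0.045 for STIP1+NSE (95% interval -9.43% to 2.94%), 0.0012 ± 0.030 for LDHA/B+CRMP1+STIP1 (-4.07% to 4.42%), 0.025 ± 0.051 for CRMP1+GDA (-5.31% to 9.38%) and -0.082 ± 0.047 for CRMP1+CRMP2 (-11.5% to 0.948%).

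Of the 8 members 0 were called in STIP1+NSE, where 0.0474% of all genes were, 0 in CRMP1+GDA (background 0%) and 0 in LDHA/B+CRMP1+STIP1 (background 0.0157%). An unadjusted p under 0.05 was reached by 1 member in LDHA/B+CRMP1+STIP1 and by 7.17% of all genes. That member was Hsp90ab1 (-0.051 ± 0.021, p = 0.0164, adjusted p = 0.551). In CRMP1+GDA and in STIP1+NSE 0 members reached it, against 3.65% and 3.19% of all genes. DESeq2 called 0 members in each. CRMP1+GDA had 7 of 8 members above controls and STIP1+NSE had 7 of 8 below.

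In CRMP1+CRMP2 both cytosolic HSP90 genes passed the test and were lower than in controls. Hsp90aa1 lay between 1175 and 1480 CPM (median 1320) in the 8 exposed animals and between 1171 and 1657 CPM (median 1465) in the 24 controls. Hsp90ab1 lay between 1946 and 2351 CPM (median 2211) against 2173 and 2733 CPM (median 2383). The exposed animals were all of batch 2. Controls of that batch alone had 1171 to 1647 CPM of Hsp90aa1 (median 1449) and 2173 to 2452 CPM of Hsp90ab1 (median 2324). Controls of batch 1 had 2220 to 2733 CPM of Hsp90ab1 (median 2501), and between the batches of controls this gene differed by -0.098 ± 0.035. The ranges overlapped for both genes, and the exposed animals occupied the lower part. Hsp90aa1 fell by 0.16 ± 0.054 on the log2 scale (adjusted p = 0.0752) and Hsp90ab1 by 0.10 ± 0.031 (adjusted p = 0.0576), changes of -10.4% (95% interval -17.0% to -3.31%) and -6.71% (-10.8% to -2.46%).

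All 8 members had a lower estimate in CRMP1+CRMP2, with a median log2 difference of -0.084 against 0.0073 over all 12691 genes. Over 14 alternative fits the estimate of Prnp ran from -0.17 to 0.050, while those of the other members stayed negative. The members also varied together from animal to animal, so their directions are not independent. Called were 2 of 8, where 11.4% of all genes were called 6.56% lower and 4.83% higher. Hspa8 (-0.12 ± 0.050, adjusted p = 0.154) and Hsph1 (-0.086 ± 0.041, adjusted p = 0.191) had an unadjusted p under 0.05 as well, as did 24.4% of all genes. This pattern was sequenced in batch 2 alone, and 12 of its 24 controls belong to batch 1.

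Both calls depended on the model. Within batch 2, against its 12 controls and with sex as covariate, Hsp90aa1 differed by -0.15 ± 0.058 (adjusted p = 0.181) and Hsp90ab1 by -0.080 ± 0.037 (adjusted p = 0.233), and 0 members were called. With litter as a random effect (limma) the adjusted p values were 0.253 and 0.249. By litter, Hsp90aa1 averaged 1216 CPM in animals 1 and 2, 1236 CPM in animals 3 and 4, 1412 CPM in animals 5 and 6 and 1395 CPM in animals 7 and 8. Both animals 1 and 2 and animals 3 and 4 were below the other litters of this pattern. For Hsp90ab1 the litters averaged 2248, 2056, 2215 and 2228 CPM in the same order. The next lowest litters of batch 2 for Hsp90ab1 were one of LDHA/B+CRMP1+STIP1 (2090 CPM) and one of STIP1+NSE (2107 CPM), so the low litter of CRMP1+CRMP2 was not alone at that level. The study also assigned litters to collection cohorts, which the labels used here do not give, so litter, cohort and exposure cannot be told apart here. Without animals 3 and 4, 0 members were called and the adjusted p values rose to 0.477 for Hsp90aa1 and 0.564 for Hsp90ab1. Without animals 1 and 2 only Hsp90ab1 was called, and without animals 5 and 6 or animals 7 and 8 Hspa8 was called as well. In the same animals the thalamic marker sum (Tcf7l2, Gbx2, Lef1 and Slc17a6) ran from 60.7 to 897 CPM and the choroid plexus sum (Ttr, Folr1, Kl, Clic6 and Otx2) from 186 to 3243 CPM, against 253 to 899 CPM and 136 to 2789 CPM in controls of batch 2. In controls of batch 1, which are also in this comparison, the medians of these sums were 67.9 and 10.1 CPM. The oligodendrocyte markers (Olig1, Olig2, Pdgfra, Sox10 and Mbp) summed to a median of 386 CPM in CRMP1+CRMP2 and 446 CPM in controls of batch 2, and the meningeal markers (Col1a1, Col1a2, Dcn and Lum) to 460 and 284 CPM. The highest sum of the pineal markers (Tph1, Crx, Asmt and Aanat) was 227 CPM in CRMP1+CRMP2 and 6.20 CPM in those controls, and that of the caudal Hox markers (Hoxb7, Hoxa5, Hoxb5 and Hoxc6, of which 3 were in the table) was 54.7 and 0.549 CPM. The part of slice content in these differences was not tested.

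**Figure D3:**
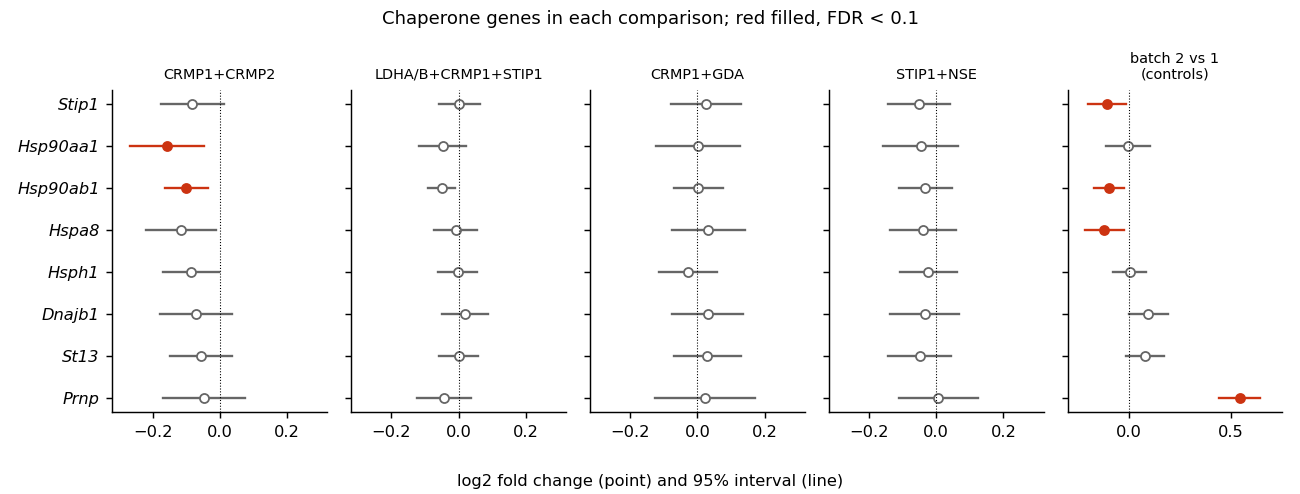
Log2 fold change (point) and 95% interval (line) of the 8 genes in 5 comparisons; red filled points passed FDR < 0.1 and open points did not. The 4 pattern panels use the same 24 controls, and the last panel, with a wider axis, sets 12 controls of batch 2 against 12 of batch 1, where Prnp lies at 0.54.

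Beyond the 8 members, 93 further genes in the table were listed by role, among them chaperones, co-chaperones, heat shock factors and partners of the prion protein. Of all 102 listed genes 101 were in the table and 99 were tested in CRMP1+CRMP2, where 13 were called, all of them lower, Hsp90aa1 and Hsp90ab1 included, while 6.56% of all genes were called lower. These calls depended on the model as well. With litter as a random effect 0 of the 99 were called and the calls over all genes fell from 1445 to 8, and within batch 2 alone 1 of 98 was called and 127 of all genes. With counts summed per litter 0 were called. With the principal components PC1 and PC2 as covariates 15 of 99 were called, 10 lower and 5 higher, and 18.9% of all genes. Without normalization factors 8 of 99 were called, 6 lower and 2 higher. The test for any difference among the groups of batch 2 called 0 of 98 listed genes, of which 10 had an unadjusted p under 0.05, against 8% of all genes. Of the 13 genes called in CRMP1+CRMP2 with the surrogate variable, 7 were HSP90 co-chaperones, of which 20 were tested, with a list median of -0.085. The 4 with the smallest p were Stub1, the ubiquitin ligase that labels clients of both chaperones (-0.20 ± 0.053, adjusted p = 0.0258), Fkbp8 (-0.16 ± 0.045, adjusted p = 0.0378), the kinase-specific adaptor Cdc37 (-0.14 ± 0.041, adjusted p = 0.0422) and the immunophilin Fkbp4 (-0.15 ± 0.047, adjusted p = 0.059). Of 24 J-domain genes Dnajb12 (-0.22 ± 0.051) and Dnajb6 (-0.13 ± 0.045) were lower. Hsbp1, a small binding protein of HSF1 (-0.19 ± 0.056), and Rpsa, the laminin receptor that also binds the prion protein (-0.23 ± 0.068), were lower too. None of 10 chaperonin genes, 13 HSP70 family genes or 6 small heat shock proteins was called. Of the 15 tested stress-inducible genes, which include members, the 2 called were Hsp90aa1 and Hsp90ab1.

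In all exposed animals and in the other 3 patterns 0 listed genes were called, and 9 of 98 had an unadjusted p under 0.05 over all exposed animals, against 10.3% of all genes. It was 4 of 99 for STIP1+NSE (3.19% of all genes), 10 of 99 for LDHA/B+CRMP1+STIP1 (7.17%) and 1 of 99 for CRMP1+GDA (3.65%).

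LDHA/B+CRMP1+STIP1 was the pattern present in both batches, which allowed its comparison with controls to be made on separate animals in each. In batch 1, Stip1 lay between 193 and 249 CPM (median 221, n = 16) against 198 and 246 CPM (median 218, n = 12), and in batch 2 between 173 and 224 CPM (median 208, n = 9) against 187 and 239 CPM (median 198, n = 12). The log2 differences were 0.0075 ± 0.038 and 0.0047 ± 0.052. No member was called in batch 1 (background 0.0167%) or in batch 2 (background 0%), and DESeq2 called 0 in each. In batch 1, 1 member and 5.4% of all genes had an unadjusted p under 0.05, the member being Prnp (-0.097 ± 0.047, p = 0.0461, adjusted p = 0.915). In batch 2 it was 0 members and 5.58% of all genes, and Prnp differed by -0.033 ± 0.050.

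The test of the difference between the batches called no member (background 0%) and found 0 with an unadjusted p under 0.05, against 2.89% of all genes. The widest gap was that of Hsph1, 0.054 ± 0.040 in batch 1 and -0.057 ± 0.044 in batch 2 (difference -0.11 ± 0.060, p = 0.0691, adjusted p = 0.9999). Among the listed genes 1 of 97 was called in batch 1, Dnajc3, a J-domain partner of the HSP70 of the endoplasmic reticulum (0.32 ± 0.059, adjusted p = 0.0334), and 0 of 97 in batch 2. With litter as a random effect, and with counts summed per litter, 0 of 97 were called in batch 1. Over both batches, with the surrogate variable, Dnajc3 was not called (0.18 ± 0.060, adjusted p = 0.397). Its difference between the batches was -0.32 ± 0.11 and was not called either.

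Across the 5 groups of batch 2 (43 animals), an F test for any difference called 0 members and 0% of 12384 genes. Prnp alone had an unadjusted p under 0.05 (p = 0.0275, adjusted p = 0.62), as did 8% of all genes. Its values were 257 to 350 CPM in CRMP1+CRMP2 (median 293), 272 to 371 CPM in CRMP1+GDA (median 356), 285 to 360 CPM in LDHA/B+CRMP1+STIP1 (median 326), 310 to 349 CPM in STIP1+NSE (median 326) and 273 to 375 CPM in controls (median 336). CRMP1+CRMP2 was lowest and CRMP1+GDA highest by median, with overlapping ranges.

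The clearest separation among these genes ran between the batches. In controls Prnp lay between 198 and 262 CPM in batch 1 and between 273 and 375 CPM in batch 2 (n = 12 each), with no overlap. The difference was 0.54 ± 0.049 on the log2 scale, or 45.5% (95% interval 35.7% to 56.0%; adjusted p = 4.3e-09). In this comparison 41.6% of 12089 genes were called, 21.4% higher and 20.2% lower, and 43.3% had an unadjusted p under 0.05. LDHA/B+CRMP1+STIP1 animals showed the same step, from 172 to 243 CPM in batch 1 (n = 16) to 285 to 360 CPM in batch 2 (n = 9), a difference of 0.60 on the log2 scale. Every litter mean of batch 1 (203 to 242 CPM) lay under every litter mean of batch 2 (272 to 363 CPM). The call held with litter as a random effect and with counts summed per litter.

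**Figure D4:**
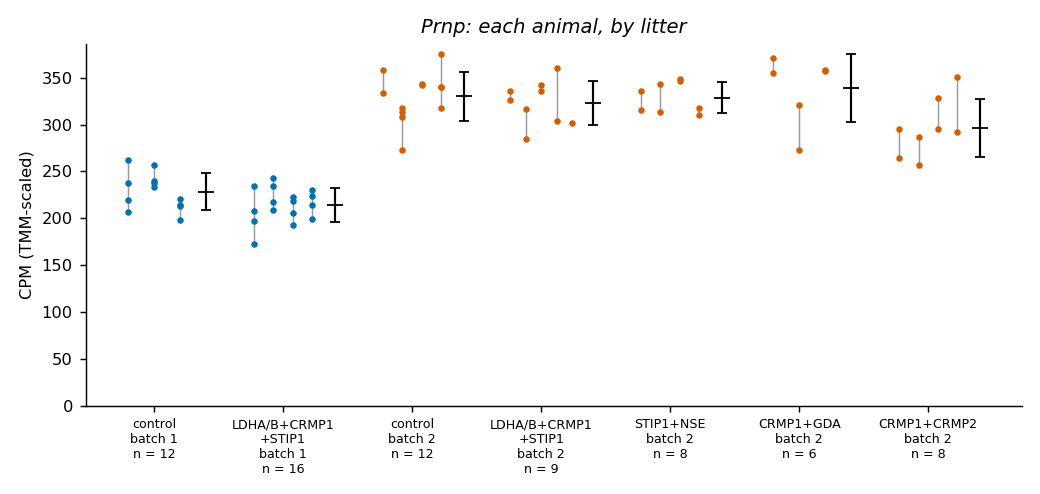
Prnp level (TMM-scaled CPM, axis from 0) in each animal by exposure and batch, drawn as for Stip1. Batch 1 lies between 172 and 262 CPM and batch 2 between 257 and 375 CPM in every exposure.

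Hspa8, Hsp90ab1 and Stip1 were also called between the batches, with smaller and negative differences. Hspa8 ran from 1824 to 2518 CPM (median 2192) in controls of batch 1 and from 1815 to 2149 CPM (median 2013) in those of batch 2, a difference of -0.12 ± 0.046 (adjusted p = 0.0417). Hsp90ab1 differed by -0.098 ± 0.035 (adjusted p = 0.0319) and Stip1 by -0.11 ± 0.045 (adjusted p = 0.0666). The ranges overlapped for all 3. With 4 of 8 members called against 41.6% of all genes, the members' share was near the background. Dnajb1 (0.096 ± 0.046, adjusted p = 0.109) and St13 (0.079 ± 0.044, adjusted p = 0.169) were not called, and Hsp90aa1 and Hsph1 differed by -0.0030 ± 0.052 and 0.0036 ± 0.038.

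The smaller calls were lost without some of the litters. With 1 litter left out in turn, Hsp90ab1 stayed called in 5 of 7 fits, and Hspa8 and Stip1 in 4 of 7 each. Animals 9 to 12 were all male and animals 3 to 6 all female, so leaving out either litter also changed the balance of sexes. Without the control litter of animals 9 to 12 only Prnp was called. Without the control litter of animals 3 to 6 the called genes were Prnp, Dnajb1 and St13, and without that of animals 13 to 16 they were Prnp, Hsp90ab1 and Dnajb1. With litter as a random effect, Prnp was the 1 member called. The slices of the batches also differed in tissue content. The 4 thalamic markers summed to 48.1 to 123 CPM in batch 1 and 60.7 to 1026 CPM in batch 2 and the 5 choroid plexus markers to 0.814 to 560 CPM and 136 to 3243 CPM. The 5 neuron markers (Tubb3, Snap25, Map2, Rbfox3 and Syt1) were at 1 CPM or more in every animal and summed to 4834 to 6133 CPM in batch 1 and 4559 to 6071 CPM in batch 2. The sums ran from 948 to 1531 CPM and 866 to 1693 CPM for radial glia and astrocytes, from 358 to 498 CPM and 373 to 544 CPM for oligodendrocytes, while the microglial sums had medians of 34.8 and 36.8 CPM. They ran from 133 to 234 CPM and 126 to 289 CPM for endothelium, from 7.24 to 451 CPM and 73.9 to 863 CPM for meninges, and from 196 to 845 CPM and 234 to 1471 CPM for blood. The pineal sums reached 4.19 CPM in batch 1 and 227 CPM in batch 2, and the caudal sums 38.1 and 107 CPM. The part of slice content in the batch differences was not tested, and in bulk tissue fewer cells of a type and less RNA per cell cannot be told apart.

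Among the listed genes 37 of 97 were called between the batches of controls, 17 higher and 20 lower in batch 2, a share near the background of 41.6% of all genes (21.4% higher and 20.2% lower). With litter as a random effect 15 of 97 were called, against 21.7% of all genes, and with counts summed per litter 7 of 97, against 15.2%. Among the 37 called without litter in the model were the small heat shock proteins Hspb1 (0.68 ± 0.23) and Hspb8 (0.67 ± 0.20), both higher. The co-chaperone Bag3 that pairs with Hspb8 (0.47 ± 0.18) was higher too. The chaperonin subunits Cct3 (-0.16 ± 0.055) and Tcp1 (-0.13 ± 0.051) were lower. J-domain genes split into 6 higher, with Dnajb2 (0.29 ± 0.053) and Dnajb4 (0.22 ± 0.056), and 4 lower, with Dnajb5 (-0.23 ± 0.053) and Dnajc2 (-0.27 ± 0.069). HSP70 cofactors split into 3 higher, with Sil1 (0.44 ± 0.10), and 4 lower, with Bag4 (-0.19 ± 0.040) and Bag2 (-0.29 ± 0.078). HSP90 co-chaperones split into 3 higher, with Stub1 (0.20 ± 0.053), and 5 lower, with Tomm70 (-0.15 ± 0.046). Of the listed partners of the prion protein, the glutamate receptor Grm5 was lower (-0.42 ± 0.065) and the nicotinic receptor Chrna7 higher (0.41 ± 0.093).

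Sex was examined over 35 males and 36 females. No member was called (background 0.0641%), 0 of 8 had an unadjusted p under 0.05 (4.66% of all genes did), and DESeq2 called 0. Stip1 had medians of 211 CPM in males and 207 CPM in females (log2 difference of males from females -0.0084 ± 0.025, 95% interval -3.93% to 2.89%). The exposure effect did not differ by sex for any member at FDR < 0.1 (background 0%, 0 of 8 at an unadjusted p under 0.05 against 3.54% of all genes, 0 called by DESeq2), with an interaction of -0.032 ± 0.052 for Stip1.

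How these genes varied together from animal to animal is given as a description over the 71 animals, after subtraction of the mean of each exposure and batch. Littermates, depth and slice content are shared by the points. Stip1 followed St13 most closely among the members (Pearson's r = 0.73), then Hspa8 (0.63), Hsp90ab1 (0.56), Hsp90aa1 (0.55) and Dnajb1 (0.54), and least Prnp (0.38) and Hsph1 (0.37). The closest pair of all was Hsp90aa1 with Hspa8 (0.86, and 0.91 and 0.84 within batches 1 and 2). The loosest was Hsph1 with Prnp (-0.016). The members' own r with log2 library depth ran from 0.21 (Prnp) to 0.46 (Dnajb1).

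**Figure D5:**
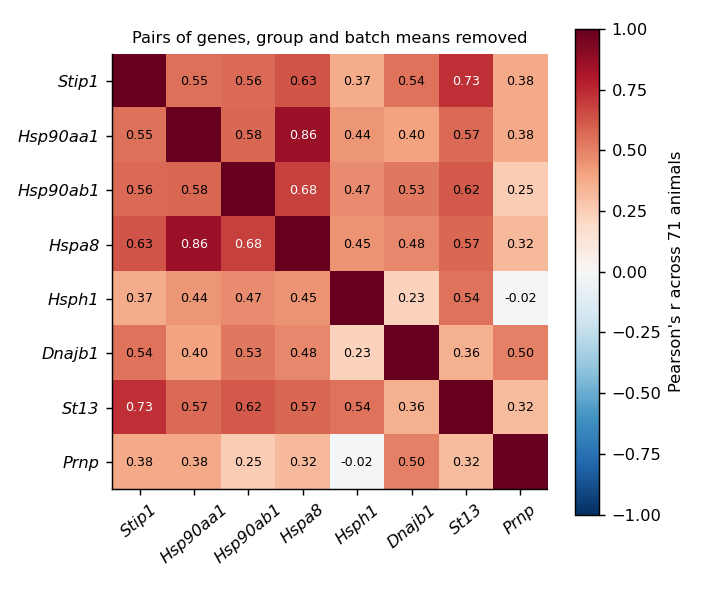
Pearson's r between each pair of the 8 genes across 71 animals (log2 CPM, mean of each exposure and batch removed; colour scale from -1 to 1). The pair of Hsp90aa1 and Hspa8 is highest at 0.86, and Prnp has the palest row.

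Over all 12476 other genes the r with Stip1 had a median of 0.012 and a 95th percentile of 0.55. Highest were Metap2, a methionine aminopeptidase (0.81), the microtubule end-binding protein gene Mapre1 (0.81), the mRNA-binding protein gene Serbp1 (0.80), the J-domain gene Dnaja1 (0.78) and the chaperonin subunit Cct4 (0.78). Lowest were Ppp6r1 (-0.79), Ssc5d (-0.76) and Abca2 (-0.75). St13 ranked 35 and Hspa8 ranked 228. Without subtraction of the means the r of Prnp with Stip1 turned from 0.38 to -0.36, as Prnp was higher and Stip1 lower in batch 2.

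In the table's build rn7, Stip1 lies on chr1:204209435-204228449 (minus strand, 14 exon blocks, 2089 exonic bases). Hsp90aa1 lies on chr6:129702376-129707907, Hsp90ab1 on chr9:15432986-15438358, Hspa8 on chr8:41183397-41187260, Hsph1 on chr12:5390990-5410224, Dnajb1 on chr19:24522717-24526458, St13 on chr7:112891007-112925727 and Prnp on chr3:119186168-119201509. All counts are over exons. HSP90, HSPA8 and ST13 genes have processed copies in mammalian genomes, and how reads matching several places were counted is not given in the sources used here, so their absolute levels are uncertain to that extent.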

How the data were processed

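Per the labels, poly-A RNA of 71 PND2 brain slices was sequenced with paired ends. The authors aligned the reads to rat build rn7 with STAR 2.5.4b and counted them per gene with featureCounts, and the deposited table holds whole-number counts without normalization, over 17494 genes, with each gene's exon length, another value the authors deposited. Libraries held 24880182 to 36234952 counts (median 28439195). Among counts from 1 to 9, 74.5% were even, so halved counts were tried. Exposure, dam and sex come from the labels and batch from the titles.

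CPM and RPKM were computed from these counts with TMM factors. Tests used edgeR 4.0.16 in R 4.3.3 (quasi-likelihood, robust) on all genes past the filter (at least 1 CPM in 8 samples, or over 1 CPM in 2 samples for single patterns), with Benjamini-Hochberg adjustment and FDR < 0.1. Models followed the study, with 1 surrogate variable (sva 3.50.0) for exposure contrasts, and sex as covariate within batches. DESeq2 1.42.0, limma 3.58.1 with litter as a random effect, other scalings, filters, covariates and omitted litters were alternatives. Animals were the replicates, so p-values also reflect littermates. Fits were tested on simulated data. The members, the gene lists and the naming rule were chosen with earlier results of these data known. Named were the 8 members, at most the 4 called genes with the smallest p per list, and the 5 highest and 3 lowest correlations with Stip1. The listed gene Dnajc1 was not found in the table. 1 marker list is not reported here.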

Additional observations from a re-analysis of the deposited data

How the results depend on the processing

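No paired analysis was possible because no litter holds animals of more than 1 exposure and the labels used here do not give the cohorts of litters. For sex, with litter as a fixed block, 0 members were called. Of 1880 tests of a member under an alternative, 1836 kept their side of the threshold, 33 lost the call, 10 gained one and 1 reversed. That one was Hsph1 between batches, at -0.11 when LDHA/B+CRMP1+STIP1 animals replaced controls, an alternative chosen after seeing the data. Of 1757 differences called in neither fit, 140 changed sign, with values up to 0.063.

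The count of members called in CRMP1+CRMP2, 2 in the report, was 1 with the likelihood ratio test and with PC1 and PC2 as covariates, and 0 with upper-quartile normalization, no normalization factors, litter as a random effect, counts summed per litter, batch and sex as covariates, and batch 2 alone. Leaving out 1 litter gave 0 to 3. Adjusted p ranged from 0.0556 to 0.408 for Hsp90aa1 and from 0.0351 to 0.41 for Hsp90ab1 over 14 alternatives. Between batches of controls, 4 in the report became 1 with litter as a random effect and with counts summed per litter, and 1 to 4 with a litter left out. The cause was not tested. In the other comparisons 0 members were called under every alternative run.

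Without centring, 3 rather than 5 members had r above 0.5 with Stip1, and r became 0.69 for Hsp90ab1, 0.76 for Hspa8, 0.49 for Hsph1, 0.35 for Dnajb1, 0.50 for St13 and -0.36 for Prnp. The order of levels was the same under the other scalings.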

Other observations

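Within each batch the members differed in how they moved with slice content, given as a description with the mean of each exposure removed. Hsph1, the HSP110 gene, had an r of 0.73 with the summed neuron markers (Tubb3, Snap25, Map2, Rbfox3 and Syt1) in batch 1 (n = 28) and 0.29 in batch 2 (n = 43), and -0.53 and -0.39 with the summed thalamic markers. Hsp90ab1 had 0.49 and 0.30 with the neuron markers, and -0.42 and -0.47 with the thalamic markers. Stip1 had 0.21 and -0.17 with the neuron markers and -0.06 and -0.29 with the thalamic markers. Prnp, the prion protein gene, had 0.29 and 0.12 with the thalamic markers, -0.31 and -0.31 with the neuron markers and 0.43 and 0.092 with the summed choroid plexus markers. Over the other 7 members, r with the choroid plexus markers spanned -0.15 to 0.31 (batch 1) and 0.13 to 0.37 (batch 2).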
